A study of Mus musculus with 16 samples.

Results

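Potassium channels are built from pore-forming subunits, which differ in what opens them, and from accessory subunits, which change their gating, their surface level or their drug sensitivity. The genes described here are those of the array's annotation whose symbol starts with Kcn and ends in a digit, leaving out Kcnj13, with 1 symbol per probe set and the brightest probe set per gene. They are 88 of the 19938 genes measured. Of these, 86 encode channel subunits. The remaining 2, Kcnmb4os1 and Kcnmb4os2, are antisense RNAs of a subunit gene and encode no subunit.

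Voltage-gated channels (Kcna, Kcnb, Kcnc, Kcnd, Kcnh and Kcnq) open on depolarisation and set the width, rate and pattern of action potentials. The silent subunits Kcnf, Kcng, Kcns and Kcnv make no channel alone but join Kcnb subunits and alter their gating. Calcium-activated (Kcnma, Kcnn) and sodium-activated (Kcnt) channels follow the ions that enter during firing. Inward rectifiers (Kcnj) and tandem-pore leak channels (Kcnk) set the resting potential, and in glia they take up potassium released by neurons.

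The RNA came from 2 brain regions. All animals were 2.5 months old and of mixed descent (C57BL/6, CD1). One was the subependymal zone (SEZ), the lining of the lateral ventricle that holds adult neural stem cells. The other was the olfactory bulb (OB), where the young neurons made in the SEZ settle as granule and periglomerular cells. Conditional knockout samples (cKO, n = 3 per tissue) were GlastCreERT2/Brg1fl/fl, and control samples (n = 5 per tissue) were GlastCreERT2/Brg1fl/+, except SEZ control replicate 5, which is labelled GlastCreERT2/Brg1+/+. All groups therefore carried the recombinase CreERT2 at the Glast (Slc1a3) locus, which is active in astroglia and stem cells, and the other controls carried a floxed copy of Brg1. Brg1, the product of Smarca4, uses ATP to move nucleosomes as the motor of SWI/SNF chromatin remodelling complexes. The labels list no treatment and call the samples biological replicates, and sex was not determined. Recombination can occur only in cells with Glast activity and in their progeny, while the RNA came from whole tissue, so unrecombined neurons contributed to every sample. The study asked how loss of Brg1 alters expression in the stem cell region and in the region its neurons reach.

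All values are log2 expression on 16 arrays, whose medians lay between 7.45 and 7.65. An array gives no true zero, and a probe set's level is not comparable with that of another gene, so each gene is compared only with itself across samples. As a guide to dim values, 118 genes of families not usually expressed in brain (Krtap, Defb and Tas2r) were used. The 95th percentile of their group means was 8.16 in OB controls, 8.14 in SEZ controls, 8.28 in OB cKO and 8.08 in SEZ cKO. A group mean under that value is described as lying within the range of these genes, and no fold is given against it. In controls, 53 of the 88 genes lay above the range in OB and 53 in SEZ. The median of all genes lay just under these limits (8.09 in OB controls and 8.11 in SEZ controls). The range therefore also holds many other genes, and lying within it does not show that a gene is not expressed.

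Markers of several cell types differed between the 2 tissues. All 9 granule and periglomerular markers were higher in OB controls than in SEZ controls, with a median difference of 2.12, and so were 5 of 6 mitral and tufted cell markers. All 8 measured markers of striatal projection neurons, which lie next to the SEZ, were higher in SEZ, with a median difference of -3.91 (OB minus SEZ). The same held for 7 of 7 mature oligodendrocyte and 6 of 6 ependymal markers. Of 8 neuroblast markers, 6 were higher in OB controls and 1 was lower, with a median difference of 0.855. The 2 dissections thus differed in their neurons and glia, and their part in the results for single channels was not tested. In whole tissue, fewer cells of a type and less RNA per cell cannot be told apart. SEZ control replicates 2 and 4 stood apart through a cortical neuron list (mean 8.03 and 8.52, against 7.09 to 7.24 on the other SEZ control arrays). Both arrays of cKO replicate 3 had a low Slc1a3 value (8.16 in SEZ and 8.85 in OB, against 11.16 to 12.27 elsewhere), and the arrays of cKO replicate 1 did not match each other in a sex-linked gene. Smarca4 itself lay between 10.62 and 10.78 in SEZ and between 10.95 and 11.09 in OB over both genotypes; its probe set is not known to lie in the deleted part, so this is no check of the knockout.

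Potassium channel genes differed widely between the tissues. In controls, 51 of 88 passed the test for OB against SEZ (limma over all genes, Benjamini-Hochberg adjusted p under 0.05), 29 of them higher in OB and 22 lower. That is 58.0% of the channel genes, while the same test called 27.5% of all genes (12.6% higher, 14.9% lower). Among genes above the median level, 45 of 56 channel genes were called (80.4%), against 41.9% of all genes there. The median size of the difference, whatever its sign, was 0.41 for the channel genes and 0.12 for all genes, while the signed medians were 0.05 and 0.00. Differences that passed with a size of at least 1 on the log2 scale numbered 23, with 16 higher and 7 lower in OB (4.85% of all genes). Those of at least 2 numbered 8, with 5 higher and 3 lower (1.08% of all genes). Of the 23 and the 8, 9 and 3 genes had a group mean within the range of the dim reference genes. The groups of 5 arrays did not overlap for 42 of the channel genes (47.7%), against 21.9% of all genes.

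**Figure D1:**
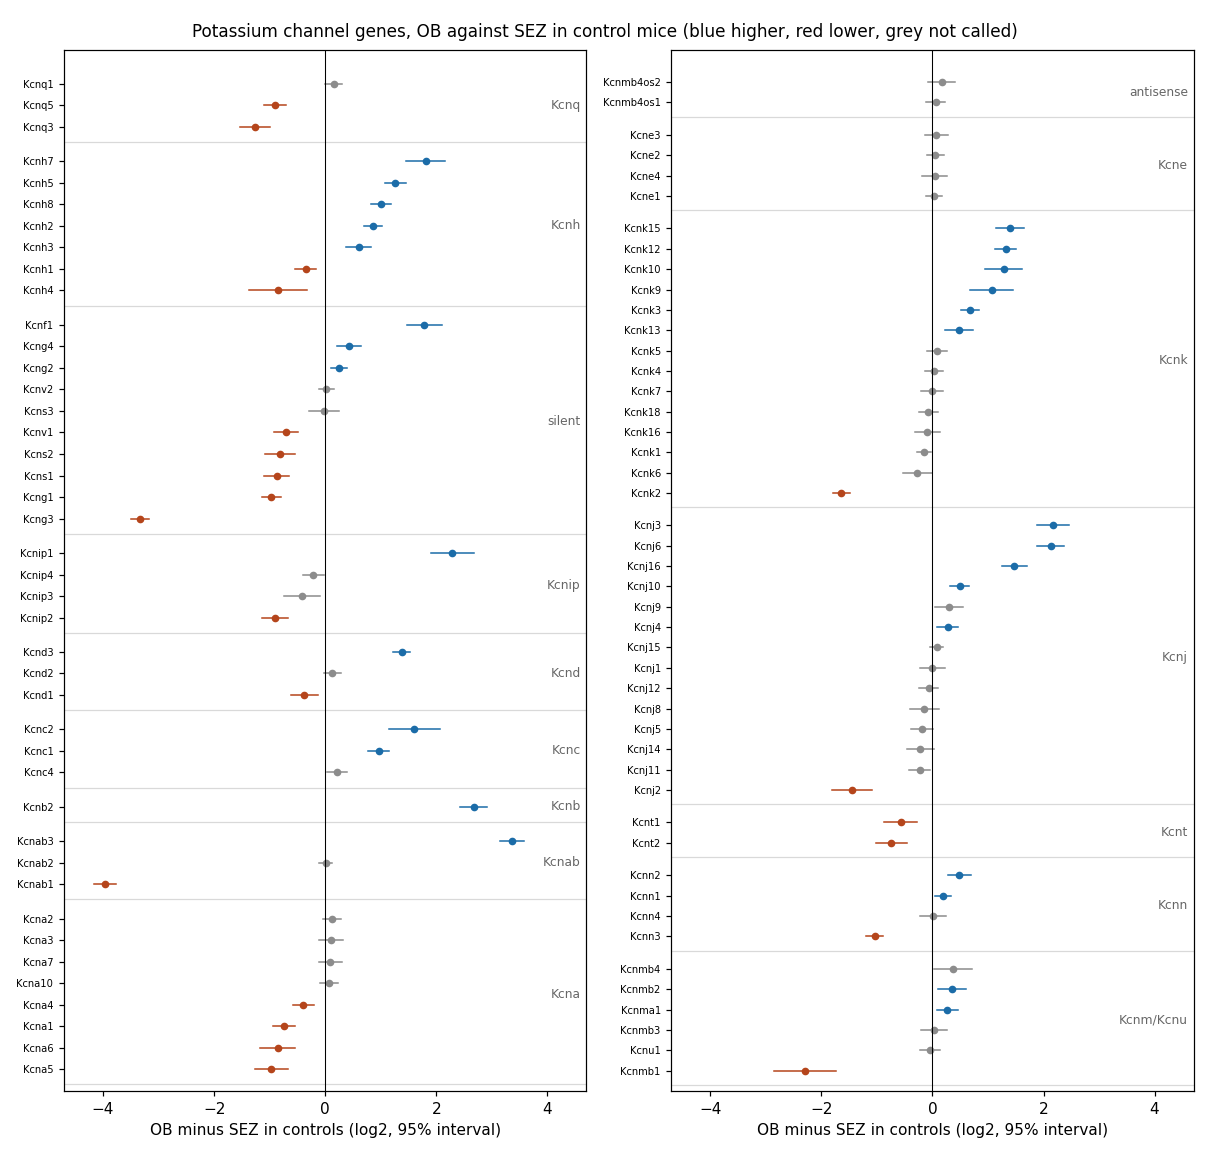
Difference between OB and SEZ in control mice for each of the 88 genes, grouped by family; the horizontal axis is OB minus SEZ in log2 units, points are estimates from limma and bars are 95% intervals. Blue points (29) passed the test as higher in OB, red points (22) as lower, and grey points (37) did not pass; Kcnab1 at -3.96 and Kcnab3 at 3.37 lie at the ends.

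**Figure D2:**
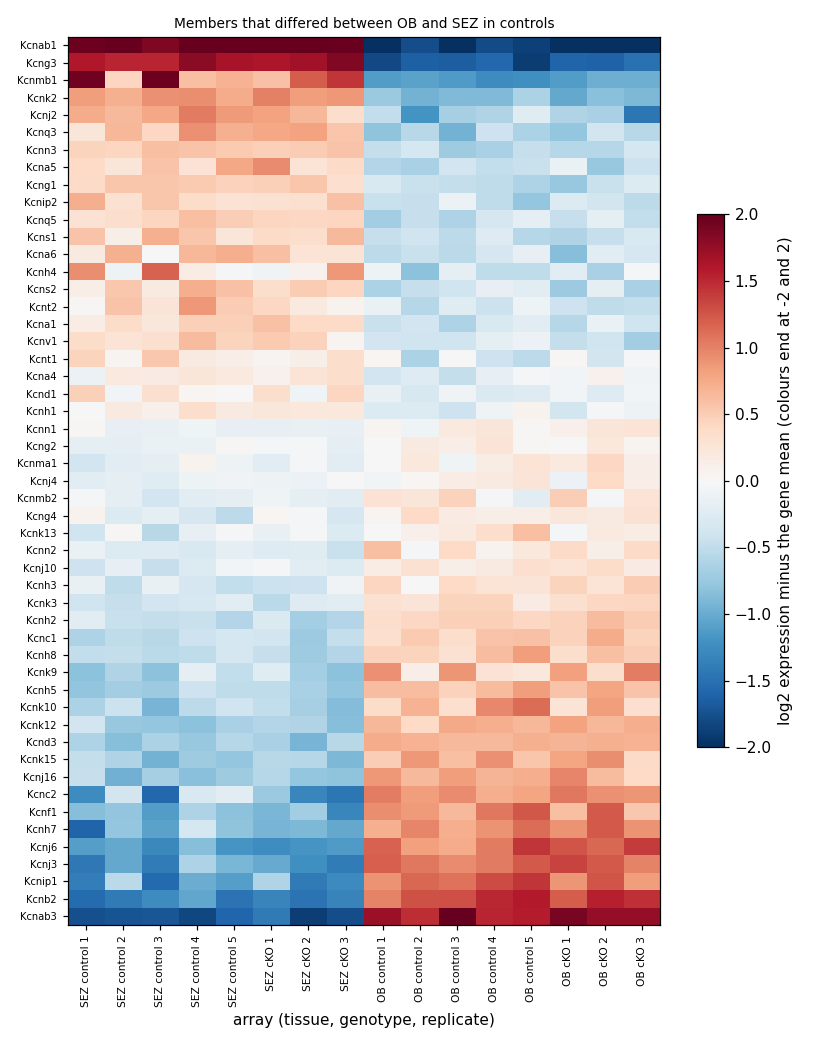
Log2 expression minus the gene's mean over all 16 arrays (colour, ending at -2 and 2) for the 51 genes that differed between OB and SEZ in controls; columns are arrays. The cKO arrays of each tissue take the same side as the control arrays of that tissue for most genes, and within SEZ controls replicates 1 and 3 differ from the others in Kcnmb1, Kcnh4 and Kcnc2.

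The start regions of 4 of these genes are shown because they had the largest differences in each direction among called genes with a single start in the RefSeq promoter table (GRCm38.p6). Each runs from 250 bases before the start to 50 after it, read 5′ to 3′ on the gene's strand, and capitals mark CG dinucleotides. Kcng3 (chr17:83631846-83632145, minus strand) and Kcnmb1 (chr11:33962763-33963062, plus strand) were lower in OB. Kcnj3 (chr2:55435720-55436019, plus strand) and Kcnh7 (chr2:63184238-63184537, minus strand) were higher in OB.
Kcng3: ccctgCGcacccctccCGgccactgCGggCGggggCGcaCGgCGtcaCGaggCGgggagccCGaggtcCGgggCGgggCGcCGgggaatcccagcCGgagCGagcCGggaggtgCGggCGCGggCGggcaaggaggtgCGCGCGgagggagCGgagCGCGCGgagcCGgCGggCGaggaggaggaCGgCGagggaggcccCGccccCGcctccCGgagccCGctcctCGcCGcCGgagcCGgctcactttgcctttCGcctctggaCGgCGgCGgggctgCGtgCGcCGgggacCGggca
Kcnmb1: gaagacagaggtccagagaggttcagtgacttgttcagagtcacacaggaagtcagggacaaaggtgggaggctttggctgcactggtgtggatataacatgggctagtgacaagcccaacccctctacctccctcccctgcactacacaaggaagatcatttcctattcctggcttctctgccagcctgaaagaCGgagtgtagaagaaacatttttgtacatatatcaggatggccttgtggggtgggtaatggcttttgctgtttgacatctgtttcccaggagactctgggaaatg
Kcnj3: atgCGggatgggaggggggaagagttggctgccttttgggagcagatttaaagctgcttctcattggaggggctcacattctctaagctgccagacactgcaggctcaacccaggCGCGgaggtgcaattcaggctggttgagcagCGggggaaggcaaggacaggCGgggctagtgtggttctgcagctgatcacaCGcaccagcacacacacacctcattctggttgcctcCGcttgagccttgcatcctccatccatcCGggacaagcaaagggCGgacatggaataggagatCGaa
Kcnh7: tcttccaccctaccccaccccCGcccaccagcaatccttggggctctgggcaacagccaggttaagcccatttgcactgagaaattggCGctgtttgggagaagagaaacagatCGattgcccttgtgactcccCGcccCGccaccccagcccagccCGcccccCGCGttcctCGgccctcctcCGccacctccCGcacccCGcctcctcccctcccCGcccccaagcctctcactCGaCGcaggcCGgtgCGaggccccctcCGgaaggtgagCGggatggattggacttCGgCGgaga
The Kcng3 region is dense in CG (49 dinucleotides, 82.0% G and C), and that of Kcnmb1 holds 1 CG in the same length (49.7% G and C). Kcnj3 and Kcnh7, both higher in OB, hold 10 and 21. Over all 32851 promoters of the table the median was 7 (quartiles 3 and 20), and over 91 promoters of the 66 channel genes that matched it was 9. Promoters of genes called higher in OB (33) and lower in OB (21) had medians of 10 and 12, and those of genes not called (37) had 8. The GC-box letters GGGCGG, on either strand, stood in 48.4% of the channel promoters and in 35.7% of all promoters of that length; the TATA-box letters TATAAA, on either strand, stood in 4.4% and 13.6%. A match describes these letters only.

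Among pore-forming subunits, the Kcna family, the axonal and dendritic low-threshold channels, was lower in OB where it differed. Of 8 measured members, 4 passed, all of them lower in OB. Kcna1, a subunit of axonal channels that limit repetitive firing, read 10.80, 10.87, 10.64, 10.94 and 11.02 in OB controls and 11.40, 11.62, 11.48, 11.73 and 11.73 in SEZ controls. Every OB array lay below every SEZ array. The difference was -0.74 (SE 0.10, limma adjusted p = 1.1e-05), 1.67-fold lower in OB. Kcna6 was 1.81-fold lower (-0.86, SE 0.15, adjusted p = 0.000298). Kcna4, a subunit of rapidly inactivating A-type channels, was 1.32-fold lower in OB (-0.40, SE 0.09, adjusted p = 0.00265), and its groups overlapped. Kcna5 differed by -0.97 (SE 0.14, adjusted p = 3.14e-05), with both group means within the range of the dim reference genes. Kcna1, Kcna5 and Kcna6 are neighbours on chromosome 6, while the neighbours Kcna3, Kcna2 and Kcna10 on chromosome 3 did not pass (0.11, 0.12 and 0.07).

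With the silent subunits left out, Kcnb2 had the largest difference among the pore-forming subunits of the 88 genes. It encodes a delayed rectifier, a slowly inactivating channel that carries repolarising current during long spike trains. Its values were 11.35, 11.63, 11.64, 11.86 and 11.93 in OB controls and 8.82, 8.93, 9.09, 9.31 and 8.88 in SEZ controls. The lowest OB array lay well above the highest SEZ array, and the difference was 2.67 (SE 0.11, limma adjusted p = 8.94e-12), 6.38-fold higher in OB.

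The silent subunits that join Kcnb channels moved in both directions. Of 10, 3 were higher in OB, 5 were lower and 2 did not pass. Kcng3 read 7.06, 7.23, 7.22, 7.30 and 6.97 in OB controls and 10.47, 10.39, 10.39, 10.67 and 10.52 in SEZ controls. It was clearly measured in SEZ, while its OB mean lay within the range of the dim reference genes, so the difference of -3.33 (SE 0.08, limma adjusted p = 4.36e-15) is given without a fold. Kcnf1 went the other way, with 11.12, 11.04, 10.83, 11.24 and 11.42 in OB controls and 9.33, 9.40, 9.06, 9.57 and 9.36 in SEZ controls. It was 3.45-fold higher in OB (1.79, SE 0.15, adjusted p = 4.31e-08). Kcng1, Kcns2 and Kcnv1 were lower in OB by 1.96-fold, 1.75-fold and 1.63-fold. Kcns1 was lower by 0.88 with its OB mean within the dim range. Kcng2 and Kcng4 were higher by 0.25 and 0.43, and both Kcng4 means lay within that range.

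The Kcnc family, whose channels open and close fast enough for high firing rates, was higher in OB in 2 of 3 measured members. Kcnc1 read 10.45, 10.66, 10.49, 10.71 and 10.72 in OB controls and 9.51, 9.63, 9.58, 9.72 and 9.78 in SEZ controls, without overlap. It was 1.95-fold higher in OB (0.96, SE 0.09, limma adjusted p = 1.4e-07). Kcnc2 read 9.76, 9.56, 9.68, 9.46 and 9.52 in OB controls and 7.47, 8.37, 7.16, 8.42 and 8.52 in SEZ controls. Its SEZ values were spread, with replicates 1 and 3 lowest and the mean within the dim range, and the difference was 1.61 (SE 0.22, adjusted p = 2.04e-05). Kcnc4 did not pass (0.20, adjusted p = 0.0899), and without OB control replicate 5 its adjusted p was 0.042.

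Kcnd channels carry the somatodendritic A-type current, which delays firing, and Kcnip proteins are calcium-binding subunits that attach to them. Kcnd3 and Kcnip1 were both higher in OB. Kcnd3 read 11.20, 11.16, 11.12, 11.12 and 11.17 in OB controls and 9.85, 9.61, 9.83, 9.70 and 9.90 in SEZ controls. The OB arrays were nearly equal, and the difference was 1.38 (SE 0.07, limma adjusted p = 1.26e-10), 2.59-fold. Kcnip1 read 11.04, 11.29, 11.22, 11.44 and 11.57 in OB controls and 8.75, 9.60, 8.58, 9.14 and 9.03 in SEZ controls, 4.89-fold higher in OB (2.29, SE 0.18, adjusted p = 2.6e-08). Other members differed less or in the opposite direction. Kcnip2 was 1.88-fold lower in OB (-0.91, SE 0.11, adjusted p = 6.38e-06), and Kcnd1 differed by -0.38 (adjusted p = 0.0182) with its OB mean within the dim range. Kcnd2 did not pass (0.13, SE 0.07, adjusted p = 0.208). Kcnip3, also known as a calcium-regulated transcriptional repressor, did not pass (-0.42, adjusted p = 0.0535), but SEZ control replicate 2 read 11.66 where the other SEZ controls read 12.38 to 12.55, and without that array the difference was -0.58 (adjusted p = 0.000989). With the replicate number as a block, the limma adjusted p of Kcnip3 was 0.046. Kcnip4 likewise did not pass (-0.21, adjusted p = 0.0973), and its adjusted p was 0.0309 without the same array and 0.0374 with the block.

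**Figure D3:**
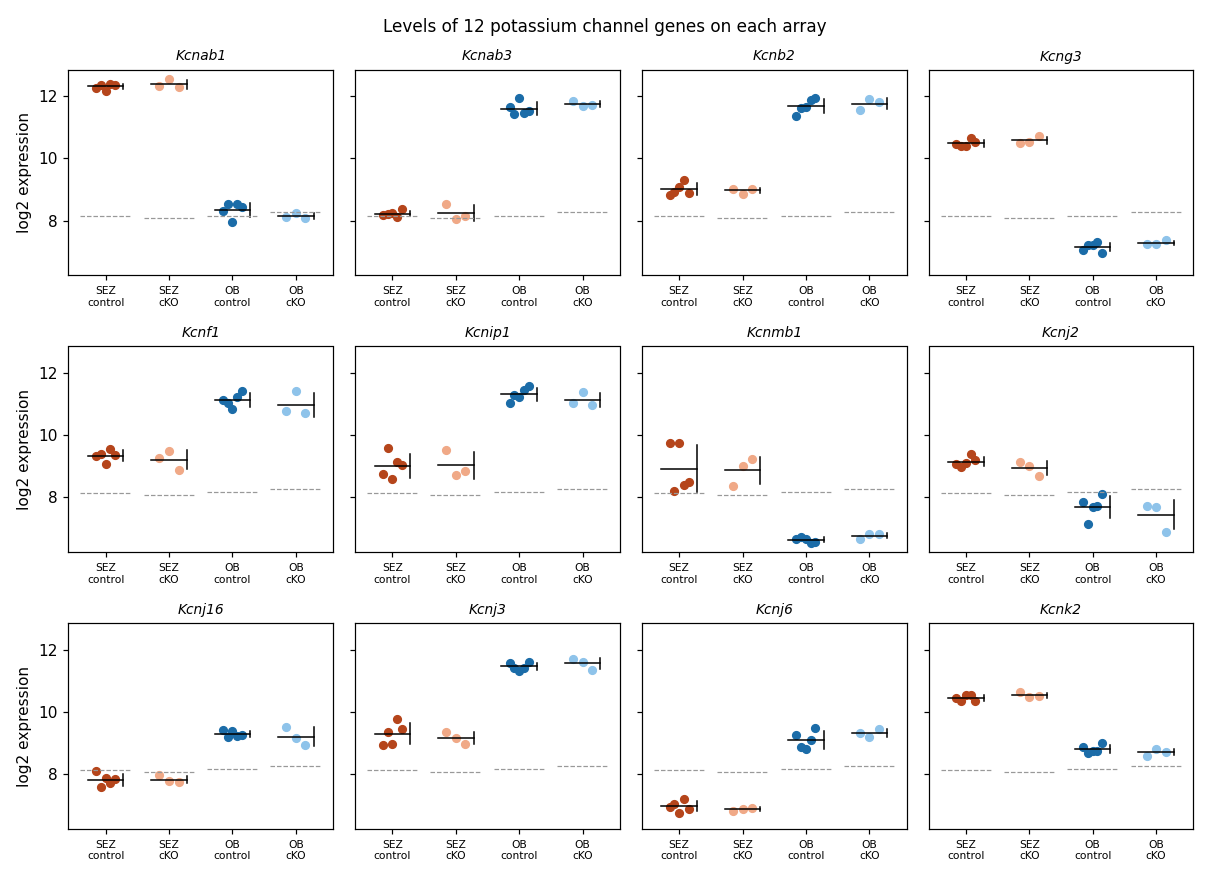
Log2 expression of 12 potassium channel genes on each of the 16 arrays, by tissue and genotype; points are arrays, the black bar is the group mean, the side bar is the SD, and dashed lines are the 95th percentile of the dim reference genes in each group. Kcnab1 and Kcng3 are high in SEZ and Kcnab3 and Kcnb2 in OB, with cKO arrays beside the controls of the same tissue.

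All 7 measured members of the ether-a-go-go family (Kcnh) passed, and Kcnh6 was not among the genes measured. Of these, 5 were higher in OB and 2 lower. Kcnh7, an ERG-type channel whose current builds up slowly during firing, read 10.17, 10.45, 10.19, 10.36 and 10.59 in OB controls and 7.86, 8.69, 8.39, 9.12 and 8.66 in SEZ controls. It was 3.50-fold higher in OB (1.81, SE 0.17, limma adjusted p = 1.88e-07), with no overlap despite the spread in SEZ. Its relative Kcnh2, the cardiac repolarising channel, was 1.81-fold higher (0.86, SE 0.08). Of the EAG-type subunits, Kcnh5 was 2.40-fold higher in OB (1.26, SE 0.09, adjusted p = 4.96e-09), while Kcnh1 was 1.28-fold lower (-0.35, SE 0.09, adjusted p = 0.00776). Among the ELK-type subunits, Kcnh3 was 1.52-fold higher and Kcnh8 differed by 1.00 with both means within the dim range. The third ELK-type gene, Kcnh4, was lower in OB (-0.85, SE 0.25, adjusted p = 0.0157). Kcnh4 read 9.17, 8.45, 9.09, 8.77 and 8.77 in OB controls and 10.20, 9.17, 10.45, 9.42 and 9.24 in SEZ controls, so the groups met at 9.17 and SEZ replicates 1 and 3 were highest.

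Kcnq3 and Kcnq5 encode subunits of the M-current, a slow potassium current closed by muscarinic receptors that damps repetitive firing, and both were lower in OB. Kcnq3 read 9.30, 9.56, 9.16, 9.69 and 9.47 in OB controls and 10.35, 10.77, 10.53, 11.03 and 10.82 in SEZ controls. It was 2.40-fold lower in OB (-1.26, SE 0.13, limma adjusted p = 4.84e-07), and the groups did not overlap. Kcnq5 was 1.87-fold lower (-0.90, SE 0.09, adjusted p = 7.16e-07), also without overlap. Kcnq1, the cardiac and epithelial member, lay within the dim range in both tissues and did not pass (0.15, adjusted p = 0.135).

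The cytoplasmic beta subunits of Kcna channels (Kcnab), which bind the channel from inside and can speed its inactivation, gave the largest differences in each direction. Kcnab1 read 8.30, 8.53, 7.97, 8.52 and 8.44 in OB controls and 12.27, 12.35, 12.18, 12.40 and 12.35 in SEZ controls. It was 15.6-fold lower in OB (-3.96, SE 0.10, limma adjusted p = 8.93e-15). Its OB mean of 8.35 lay close above the upper end of the dim range (8.16), and OB control replicate 3 lay below that value. Kcnab3 read 11.66, 11.41, 11.93, 11.46 and 11.51 in OB controls and 8.18, 8.22, 8.23, 8.12 and 8.36 in SEZ controls, 10.3-fold higher in OB (3.37, SE 0.10, adjusted p = 1.45e-13). The SEZ mean of Kcnab3 (8.22) was likewise close above the dim range of that group (up to 8.14), and SEZ control replicate 4 lay within it. The third beta subunit did not follow either: Kcnab2 read 11.68 to 11.79 in OB controls and 11.63 to 11.85 in SEZ controls. Its difference was 0.01 (SE 0.06, adjusted p = 0.954).

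The Kcne genes, single-pass accessory subunits best known from heart and epithelia, did not pass in any of 4 cases, with differences of 0.03 to 0.07 and every group mean within the dim range. The 2 antisense RNAs did not pass either (0.06 and 0.17).

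Among calcium- and sodium-activated channels, the larger differences (Kcnmb1, Kcnn3, Kcnt1 and Kcnt2) were lower in OB. Kcnma1 encodes the pore of the large-conductance BK channel, and Kcnmb1 an accessory subunit best known from smooth muscle that raises its calcium sensitivity. Kcnmb1 read 6.68, 6.73, 6.66, 6.54 and 6.57 in OB controls, within the dim range, and 9.74, 8.22, 9.76, 8.40 and 8.49 in SEZ controls. The difference was -2.29 (SE 0.26, limma adjusted p = 2.63e-06), and SEZ replicates 1 and 3 stood above the others. On those same arrays the mean of the 6 ependymal markers was 8.34 and 8.29, against 7.87 to 7.93 on the other SEZ controls, and Kcnh4 was highest and Kcnc2 lowest on them too. Of the 12 marker lists, 6 set replicates 1 and 3 apart from the other SEZ controls. Besides ependymal cells, the means were higher there for striatal neurons (12.87 and 12.86, against 12.66 to 12.80) and neuroblasts (9.91 and 10.09, against 9.79 to 9.82). They were lower there for mature oligodendrocytes (11.04 and 10.96, against 11.28 to 11.69), astrocytes (10.24 and 10.25, against 10.40 to 10.58) and microglia (8.98 and 8.88, against 9.03 to 9.24). In SEZ cKO, Kcnmb1 read 8.38, 9.01 and 9.23 where the ependymal mean was 7.93, 8.20 and 8.22 and the mature oligodendrocyte mean 11.41, 11.27 and 11.10. Smooth muscle Acta2 was lower in OB by 1.67, and the part of any of these cell types in the values of Kcnmb1, Kcnh4 and Kcnc2 was not tested. Kcnmb1 overlaps Kcnip1 on chromosome 11 in the annotation, and these 2 genes differed by -2.29 and 2.29.

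Kcnma1 itself was slightly higher in OB (0.27, SE 0.09, limma adjusted p = 0.0361). It did not pass when the mean of its 2 probe sets was used, or when only the control arrays were fitted. Kcnmb2 differed by 0.35 (adjusted p = 0.0353) with both means within the dim range. Kcnmb4, the neuronal BK accessory subunit, did not pass (0.37, SE 0.16, adjusted p = 0.111), and with the replicate block its adjusted p was 0.022. The small-conductance channels (Kcnn), which produce the afterhyperpolarisation that follows a spike train, split by member. Kcnn3 read 10.00, 10.12, 9.77, 9.83 and 10.02 in OB controls and 10.92, 10.91, 11.07, 11.04 and 10.99 in SEZ controls. It was 2.05-fold lower in OB (-1.04, SE 0.07, adjusted p = 4.63e-09). Kcnn2 was 1.40-fold higher in OB (0.49, SE 0.10, adjusted p = 0.00123), and Kcnn1 differed by 0.19 (adjusted p = 0.0446) with its SEZ mean within the dim range. Both sodium-activated channels were lower in OB, Kcnt1 by 1.49-fold (-0.58, SE 0.14, adjusted p = 0.00435) and Kcnt2 by 0.74 with its OB mean within the dim range (SE 0.13, adjusted p = 0.000323).

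Of 14 inward rectifier genes, 5 were higher in OB, 1 was lower and 8 did not pass. The largest differences were in G-protein-gated subunits, which open when transmitter receptors release G-protein beta-gamma subunits and so slow firing. Kcnj3 read 11.57, 11.43, 11.32, 11.42 and 11.60 in OB controls and 8.94, 9.35, 8.98, 9.76 and 9.46 in SEZ controls, 4.50-fold higher in OB (2.17, SE 0.13, limma adjusted p = 1.22e-09). Its partner Kcnj6 read 9.25, 8.88, 8.80, 9.10 and 9.49 in OB controls and 6.96, 7.04, 6.77, 7.21 and 6.89 in SEZ controls. The SEZ mean of Kcnj6 lay within the dim range, and the difference was 2.13 (SE 0.11, adjusted p = 1.91e-10). The other G-protein-gated subunits did not pass: Kcnj9 differed by 0.30 (SE 0.12, adjusted p = 0.0727), and Kcnj5 lay within the dim range in both tissues. Without SEZ control replicate 4, the difference in Kcnj9 was 0.41 (adjusted p = 0.00772), and with the replicate block on all arrays its adjusted p was 0.0395.

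Kcnj10 and Kcnj16 form the main potassium channel of astroglia, and both were higher in OB. Kcnj10 read 11.63, 11.79, 11.60, 11.67 and 11.83 in OB controls and 11.07, 11.32, 11.03, 11.21 and 11.43 in SEZ controls, 1.41-fold higher (0.49, SE 0.08, limma adjusted p = 0.000191). Kcnj16 read 9.41, 9.20, 9.38, 9.23 and 9.27 in OB controls and 8.09, 7.59, 7.89, 7.71 and 7.84 in SEZ controls, a difference of 1.48 (SE 0.11, adjusted p = 7.54e-09) with the SEZ mean within the dim range. Of the 8 astrocyte markers, 1 was higher and 1 lower in OB, with a median difference of 0.06, and the mean of the list ranged from 10.26 to 10.68 in OB controls and from 10.24 to 10.58 in SEZ controls. Kcnj2, a strong inward rectifier that holds cells near the potassium potential, read 7.85, 7.14, 7.68, 7.74 and 8.10 in OB controls and 9.09, 8.99, 9.11, 9.38 and 9.19 in SEZ controls. It was lower in OB by 1.45 (SE 0.17, adjusted p = 3.76e-06), with its OB mean within the dim range. Kcnj16 and Kcnj2 are neighbours on chromosome 11 and differed in opposite directions. Kcnj4, another strong rectifier, was 1.21-fold higher in OB (adjusted p = 0.0262). Kcnj11, the pore of the ATP-sensitive channel, did not pass (-0.23, adjusted p = 0.0732), and without SEZ control replicate 2 its adjusted p was 0.00798.

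Tandem-pore leak channels were mostly higher in OB where they differed, with 6 of 14 higher, 1 lower and 7 that did not pass. Of the acid-sensitive (TASK-type) genes, Kcnk3, Kcnk9 and Kcnk15 were higher. Kcnk5 did not pass (0.08, limma adjusted p = 0.554), with both means within the dim range. Kcnk9 read 10.32, 9.54, 10.28, 9.69 and 9.62 in OB controls and 8.59, 8.80, 8.59, 9.23 and 8.91 in SEZ controls, 2.09-fold higher (1.07, SE 0.18, limma adjusted p = 0.000204). Kcnk3 was 1.60-fold higher (0.68, SE 0.08, adjusted p = 1.86e-06), and Kcnk15 differed by 1.39 (SE 0.12, adjusted p = 6.96e-08) with its SEZ mean within the dim range. Both halothane-inhibited (THIK-type) genes were also higher, Kcnk12 by 2.50-fold (1.32, SE 0.09, adjusted p = 4.67e-09) and Kcnk13 by 1.39-fold (0.47, SE 0.12, adjusted p = 0.00639). The mechano-gated (TREK-type) channels split, and Kcnk4 did not pass (0.03, limma adjusted p = 0.858), with both means within the dim range. Kcnk2 read 8.89, 8.69, 8.75, 8.75 and 8.99 in OB controls and 10.46, 10.34, 10.55, 10.56 and 10.37 in SEZ controls, 3.12-fold lower in OB (-1.64, SE 0.07, adjusted p = 1.38e-11). Kcnk10 differed the other way by 1.28 (SE 0.16, adjusted p = 5.83e-06), with its SEZ mean within the dim range. The weak inward rectifiers Kcnk1 and Kcnk6 did not pass in controls (-0.16, adjusted p = 0.0669, and -0.27, adjusted p = 0.131), and without SEZ control replicate 2 their adjusted p were 0.0323 and 0.0168. With the replicate block, Kcnk6 had an adjusted p of 0.0256.

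A few of the smaller calls in controls depended on single arrays. Among 16 fits that each left out 1 array, Kcnn1 missed the threshold in 11, without OB control replicates 1, 3 or 4, SEZ control replicates 2, 3, 4 or 5, OB cKO replicate 2, or any SEZ cKO array (up to a limma adjusted p of 0.124, without OB control replicate 4). Kcnmb2 missed it in 7, without OB control replicates 1, 2 or 3 or SEZ control replicates 2 to 5 (up to 0.105, without OB control replicate 3). Kcnma1 missed it in 6, without OB control replicates 2, 4 or 5 or SEZ control replicates 1 to 3 (up to 0.0942, without OB control replicate 5). Kcnj4 also missed it in 6, without OB control replicates 3 to 5 or SEZ control replicates 1 to 3 (up to 0.072, without OB control replicate 5). The other 47 of the 51 calls held in all 16 fits.

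The same tissue contrast was read in the cKO samples, which came from other mice and share no array with the controls, although 1 fit supplied the spread for both. In cKO, 44 of 88 channel genes differed between OB and SEZ, 24 higher and 20 lower in OB (50.0%), against 23.1% of all genes (10.0% higher, 13.1% lower). Of these, 42 had also passed in controls, which is 82.4% of the control list and 95.5% of the cKO list, and all 42 had the same direction. All 51 genes called in controls had the same sign in cKO. Across the 88 genes the 2 sets of differences had a Pearson correlation of 0.993, given as a description because genes are not independent replicates. With separate fits for each genotype, 49 and 45 genes were called, 40 of them in both.

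The largest differences were of like size in cKO. Kcnab1 read 8.12, 8.26 and 8.07 in OB and 12.31, 12.55 and 12.28 in SEZ (-4.23, SE 0.12, limma adjusted p = 2.76e-13), and its OB mean lay within the dim range. Kcnab3 read 11.84, 11.69 and 11.70 in OB and 8.52, 8.05 and 8.16 in SEZ, 11.3-fold higher in OB, with its SEZ mean (8.245) close above the dim range (up to 8.084). Kcnb2 was 6.92-fold higher, Kcnj3 5.28-fold higher, Kcnip1 4.26-fold higher and Kcnk2 3.54-fold lower in OB. Kcng3 differed by -3.29 and Kcnj6 by 2.46. These genes encode beta subunits of Kcna channels, a delayed rectifier, a silent subunit, a G-protein-gated pair, an A-type accessory subunit and a leak channel, and each was on the same side as in controls.

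Of the control calls, 9 did not pass in cKO, where 3 arrays per tissue stood against 5 in controls. They were Kcna4, Kcnd1, Kcng2, Kcng4, Kcnh4, Kcnj4, Kcnk13, Kcnmb2 and Kcnt1. Kcnt1, for example, differed by -0.58 in controls and by -0.30 in cKO (limma adjusted p = 0.281). With 1 array left out, Kcnd1, Kcng4 and Kcnj4 each passed in 1 of 16 fits and Kcnmb2 in 2. The lowest adjusted p of Kcnd1 was 0.0153 (SEZ cKO replicate 2 out) and of Kcng4 0.0379 (SEZ control replicate 1 out). Those of Kcnj4 and Kcnmb2 were 0.0408 and 0.0224 (OB cKO replicates 1 and 2 out, respectively). With the replicate block, Kcnd1, Kcnh4, Kcnmb2 and Kcnt1 passed, although cKO numbers were not taken as pairs. Kcnk1 and Kcnk6 passed in cKO and not in controls (-0.31, adjusted p = 0.00699, and -0.47, adjusted p = 0.0454). Without SEZ cKO replicate 1 the Kcnk6 value was -0.33 (adjusted p = 0.222), and it missed the threshold in 9 of 16 such fits. Kcnh1 missed it in 5 (up to 0.168 without OB cKO replicate 1) and Kcnma1 in 3 (up to 0.079 without OB cKO replicate 2). The direct test of the difference between the 2 tissue contrasts, given at the end, called none of these genes.

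**Figure D4:**
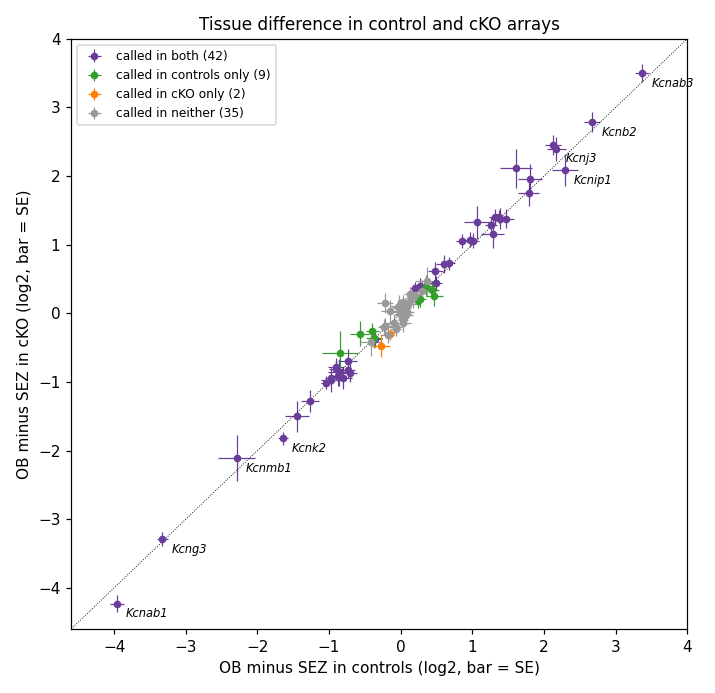
OB minus SEZ in controls (horizontal) against OB minus SEZ in cKO (vertical) for the 88 genes, both in log2 units with SE bars, coloured by the comparison in which each gene was called; the dotted line marks equal differences. Points lie along that line (Pearson correlation 0.993), from Kcnab1 at -3.96 and -4.23 to Kcnab3 at 3.37 and 3.50.

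Other genes of membrane excitability were read from lists chosen for their function. Of 17 partners of potassium channels outside the Kcn name, 5 were higher and 4 lower in OB controls. The higher ones included Lrrc55, a BK accessory protein (11.21 in OB and 8.95 in SEZ on average, difference 2.26, SE 0.09, limma adjusted p = 7.12e-12). Amigo1, an accessory protein of Kcnb channels, was also higher (1.21, SE 0.07, adjusted p = 5.87e-10), as were the Kcnd-binding proteins Dpp6 (0.36) and Dpp10 (0.84). Lrrc38 differed by 0.70 with both means within the dim range. Lower in OB were Cntnap1 (-1.74, adjusted p = 4.88e-09) and Cntn2 (-0.71, adjusted p = 0.000274), adhesion proteins of the node region of myelinated axons, where Kcna1 channels sit. Lgi1 (-0.53) and Dlg1 (-0.47) were the other lower ones. Among the partners that did not pass were Cntnap2 (-0.12, limma adjusted p = 0.559), Dlg2 (0.095), Dlg4 (-0.17) and Ank3 (-0.255). The partners were not tested as a group. The mean of the mature oligodendrocyte list lay between 10.03 and 10.25 in OB controls and between 10.96 and 11.69 in SEZ controls, and its part in Cntnap1, Cntn2 and Kcna1 was not tested.

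Of 3 hyperpolarisation-activated channels measured, Hcn4 (1.72) and Hcn3 (0.82) were higher and Hcn2 (-0.31) lower in OB. Calcium channel pore genes were higher in 5 of 10 cases and lower in 2, led by Cacna1g, a low-threshold channel (11.31 in OB and 8.41 in SEZ on average, 2.90, SE 0.09, limma adjusted p = 1.45e-13). Of 11 sodium channel genes, 1 was higher and 5 were lower, and the largest was Scn4b, a beta subunit (-6.08, adjusted p = 1.03e-15, with its OB mean within the dim range). In controls the channel genes thus differed in both directions in each of these lists, as the Kcn genes did. For sodium channels the higher side was Scn3a alone (0.31, limma adjusted p = 0.0474). In cKO, 0 sodium channel genes were higher in OB and 5 were lower.

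For cKO against control within a tissue, no potassium channel gene was called. In SEZ, 0 of 88 passed (limma), and 0 had an unadjusted p under 0.05, while over all genes 0 were called (0.0%) and 2.47% had an unadjusted p under 0.05. The estimates ran from -0.42 to 0.19 and their median was 0.01. Of the 88 intervals at 95%, 82 lay within 0.5 log2 units of 0 and all 88 within 1. The widest departure was Kcnc2, at 7.98, 7.43 and 7.29 in cKO and 7.47, 8.37, 7.16, 8.42 and 8.52 in controls, and its interval ran from -0.96 to 0.12. The groups overlapped, and the controls spread further than the difference.

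In OB, 0 of 88 passed and 1 had an unadjusted p under 0.05, against 9 genes called over the whole table (0.0451%) and 3.51% with an unadjusted p under 0.05. That gene was Kcna4, which read 10.44, 10.59 and 10.43 in cKO and 10.12, 10.24, 10.02, 10.33 and 10.46 in controls. The difference was 0.25 (SE 0.10, 95% interval 0.03 to 0.47, unadjusted p = 0.0282, limma adjusted p = 1), and the groups overlapped. Kcnv1, a silent subunit, was the only one of the 88 whose groups did not overlap (2.53% of all genes), with 9.69, 9.78 and 9.47 in cKO and 9.78 to 10.05 in controls, a gap smaller than the rounding. Its difference was -0.23 (SE 0.12, limma adjusted p = 1). In OB, 76 intervals lay within 0.5 log2 units of 0 and all 88 within 1. The glial genes Kcnj10 and Kcnj16, expressed in the cell class that has Glast activity, read 11.65 to 11.86 and 8.94 to 9.52 in OB cKO, against 11.60 to 11.83 and 9.20 to 9.41 in OB controls.

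Whether the effect of genotype differed between the tissues was tested directly (SEZ effect minus OB effect). No channel gene passed (limma), and 0 had an unadjusted p under 0.05, against 1 gene called over the whole table (0.00502%) and 1.48% with an unadjusted p under 0.05. Estimates ran from -0.51 to 0.27, and 61 of 88 intervals lay within 0.5 log2 units of 0. With 3 against 5 arrays, differences inside these intervals cannot be told from 0.

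**Figure D5:**
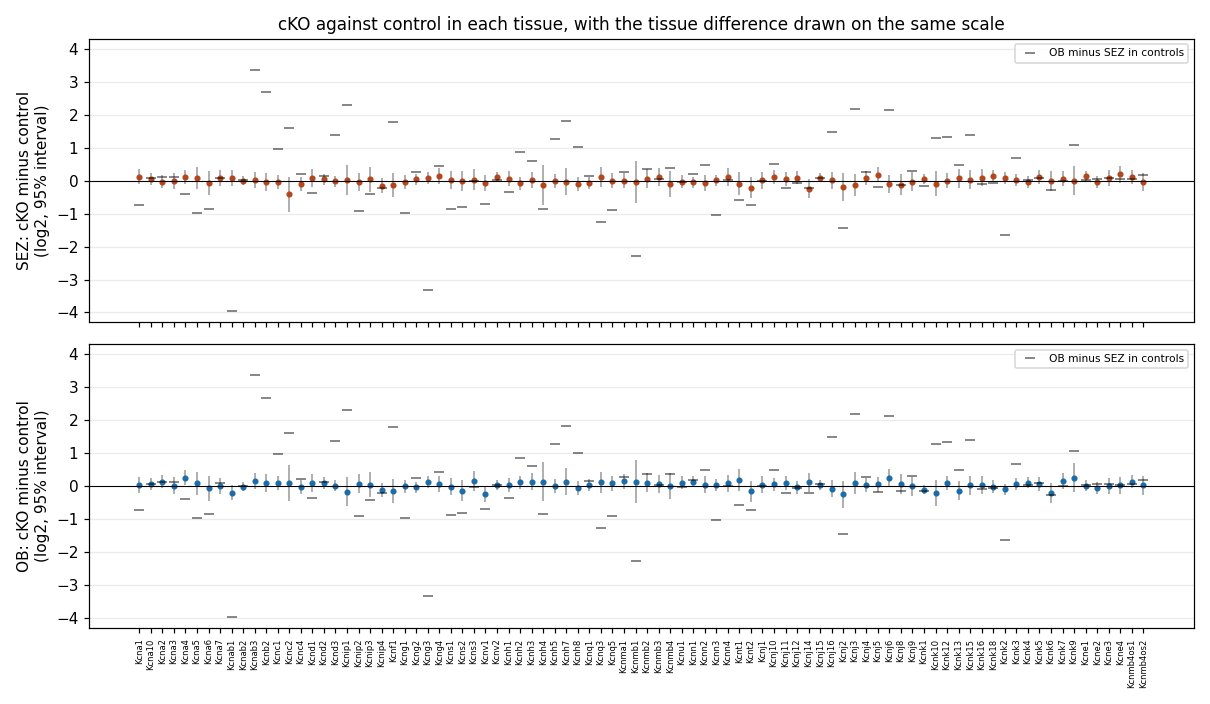
cKO minus control in SEZ (upper panel) and OB (lower panel) for each of the 88 genes, in log2 units; points are estimates and lines 95% intervals, and black dashes give OB minus SEZ in controls on the same scale. All 88 genotype intervals stay within 1 log2 unit of 0 in both tissues, while the tissue differences reach -3.96 and 3.37.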

How the data were processed

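RNA from 16 samples was hybridised to Affymetrix arrays. The authors deposited log2 expression per probe set, made with RMA in Affymetrix Expression Console 1.2, per the submitters' processing notes. Total RNA was purified on columns with a DNase step, per the labels' protocols. RMA makes the arrays' distributions alike, so a shift of all genes would not be seen. Of 35556 probe sets, 21789 had 1 symbol in the platform annotation and gave 19938 genes. Probe sets with several symbols (1621) or none (12146) were left out. Kcnh8, Kcna2 and Kcnma1 had more than 1 probe set, and the brightest was used.

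All 16 arrays were fitted with limma 3.58.1 in R 4.3.3 in 4 groups of tissue by genotype with no covariate (12 residual and 4.34 prior degrees of freedom). Tests were two-sided, with Benjamini-Hochberg adjustment across the 19938 genes and a threshold of 0.05. The test was checked on simulated data. Fold is 2 to the power of the log2 difference. For arrays, their number limits the precision. Alternatives were other scalings, filters, probe set summaries, fits and left-out arrays. Within each family the genes with values were the largest calls and the brightest others, widened to all called genes. The genes and lists were chosen with earlier results of these data known.

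OB and SEZ samples of a genotype share replicate numbers. The correlation of their deviations from the group means was -0.06, 0.25 and 0.38 in cKO and 0.17 to 0.57 in controls. All 5 control pairs lay above 0.1, so for controls the numbers were taken to pair the samples. The labels go against this for replicate 5, which is Brg1fl/+ in OB and Brg1+/+ in SEZ. The OB array of control replicate 1 correlated best with an SEZ array of another number. Same-numbered cKO and control arrays, which came from different mice, correlated by 0.428, 0.332 and 0.324 in OB. In SEZ these values were -0.405, 0.129 and 0.611. A correlation by number alone therefore does not show that 2 samples share an animal. The pairing is thus an assumption, and a value blocked on replicate number stands beside each control result whose call it changes. In cKO they were not taken as pairs, but the blocked fit held all 16 arrays and gave each cKO number a block too. The cKO arrays, including those of replicate 1 that differ in a sex-linked gene, therefore also entered the spread behind the blocked control values. Promoter sequences and the order of neighbouring genes are RefSeq's (GRCm38.p6). For the probe sets themselves, no genome build is named in the sources used here.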

Additional observations from a re-analysis of the deposited data

Results flagged for a closer look

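In 176 sets of 5 control arrays (88 genes in each tissue), 7 held an array far from the others, with the gap to the nearest array over 0.71 of the whole range. Chance flags about 1 set in 20. Kcnip3, Kcnip4 and Kcna4 were each low on an SEZ control array. Kcnip3 read 11.66 on SEZ control replicate 2 (others 12.38 to 12.55), and on the same array Kcnip4 read 10.89 (others 11.15 to 11.23). Kcna4 read 10.38 on SEZ control replicate 1 (others 10.66 to 10.75).

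The leak channel Kcnk12 read 9.48 on OB control replicate 2 (others 9.74 to 9.84). The remaining cases lay within the range of the dim reference genes. Kcnk16 read 7.55 on SEZ control replicate 1 (others 7.12 to 7.18) and Kcnk4 read 7.41 on SEZ control replicate 3 (others 7.63 to 7.68). Kcnv2 read 6.67 on OB control replicate 5 (others 6.77 to 6.78).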

How the results depend on the processing

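The count of 51 channel genes that differed between OB and SEZ in controls ranged from 47 to 52 when 1 array was left out and from 45 to 56 under the other alternatives, and the count of 44 in cKO from 41 to 45 and from 38 to 49. The counts for genotype and for the difference between tissues were 0 throughout. With the replicate number as a block, the counts were 56 in controls and 49 in cKO. In controls it added Kcnip3, Kcnip4, Kcnj9, Kcnk6 and Kcnmb4 and changed no other call. In cKO, where the numbers were not taken as pairs, it added 5 (Kcnd1, Kcnh4, Kcnmb2, Kcnmb4 and Kcnt1) and removed 0. In the check of the pairing, 5 of 8 samples correlated best with their own number. Of the 51 calls in controls, 45 held under every alternative in which the gene was tested. Kcng2, Kcnh1, Kcnj4, Kcnma1, Kcnmb2 and Kcnn1 did not. In cKO, 37 of 44 held. Among 71 genes followed singly in controls and 53 in cKO, the sign turned for 4 genes, in controls and with differences near 0 that had not passed. When 1 array was left out, Kcnab2 lay between -0.018 and 0.036, Kcne1 between -0.010 and 0.057, and Kcne4 between -0.022 and 0.088. Without SEZ control replicates 2 and 4, Kcnab2 was -0.020 and Kcnmb4os1 was -0.018. The cause was not tested. With 3 to 5 arrays a group, the number of arrays limits the precision.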
